A study of Mus musculus with 12 samples.

Results

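Lysosome and autophagy genes were described in mouse kidney tubuloids given myoglobin with or without dexamethasone. The 38 genes were taken by symbol: a row belonged to the group when its gene symbol was on a list of lysosomal enzymes and membrane proteins, TFEB targets and autophagy genes. All 38 were found, 1 row each, among the 20819 genes of the table, and all 38 passed the filter on low values described below. The rule used no expression value, but the list was chosen with earlier results of these data known.

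The lysosome is the acidic compartment in which epithelial cells digest what they take up and what autophagy delivers from their own cytoplasm. Tubule cells reabsorb filtered proteins, myoglobin among them, by endocytosis and break them down with lysosomal cathepsins and other hydrolases. The transcription factors TFEB and TFE3 turn on many genes of the pathway through a short promoter element built on the E-box CACGTG, and they enter the nucleus when the kinase complex mTORC1 is inactive, so that much of their control acts on the protein and not on the transcript.

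Tubuloids, which are epithelial structures grown in Matrigel from dissociated kidney cortex, came from 4 wild-type mice. All libraries shared that origin and were taken at 12 h. Tubuloids of the first group received myoglobin and 100 nM dexamethasone, a synthetic glucocorticoid, those of the second received myoglobin alone, and those of the third received vehicle. Each group had 4 libraries of polyadenylated RNA (12 in all). The dose of myoglobin, the composition of the vehicle, and the age and sex of the mice are not given in the sources used here, nor is which mouse gave which library. The p-values therefore measure the spread between these libraries, which may be partly technical.

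The deposited values are whole numbers on a scale of reads divided by a factor per library, called normalised reads here. Changes are given as log2 fold changes of these values plus 1 with their standard error (SE). A gene passed when its limma p, adjusted by the Benjamini-Hochberg method over the 14558 genes with at least 10 normalised reads in at least 4 libraries, was below 0.05. Hmox1 and Fkbp5 served as checks of the treatments. Hmox1, the haem-degrading enzyme, had 453 to 540 normalised reads with myoglobin and dexamethasone and 446 to 475 with myoglobin, against 106 to 124 with vehicle. Fkbp5, a glucocorticoid target, had 493 to 595 with myoglobin and dexamethasone, 230 to 265 with myoglobin and 202 to 251 with vehicle. All 7 epithelial markers examined were above 100 in every library. Of the 6 proximal tubule markers in the table, Cubn, Slc34a1 and Slc5a2 were below 10 in every library. Lrp2, the megalin gene, had 288 to 374 normalised reads with myoglobin and dexamethasone, 351 to 456 with myoglobin and 216 to 264 with vehicle. Aqp1 had 3 to 11 with myoglobin and dexamethasone, 4 to 12 with myoglobin and 9 to 16 with vehicle. For Hnf4a the ranges in the same order were 9 to 23, 5 to 13 and 11 to 14. Leukocyte markers were present at sums of 953 to 1146 with myoglobin and dexamethasone, 1028 to 1196 with myoglobin and 868 to 1058 with vehicle over 13 genes, of which Ptprc and Cd14 gave most, while C1qa, C1qb, C1qc and Tyrobp stayed at 7 or below. Across all libraries Aif1 had 49 to 129 and Lyz2 28 to 112. The highest values of Adgre1, Csf1r, Mrc1, Fcer1g and Itgam were 28, 19, 32, 11 and 7.

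Replicate 4 of the myoglobin-dexamethasone group stood apart from the other libraries. Estimated from the spacing of its low values, it held 3255000 reads, against 4854000 to 5534000 in the other 3 libraries of its group, 5284000 to 5923000 in the myoglobin group and 5506000 to 5867000 in the vehicle group. Of the 38 genes, 24 were higher in it than in the other 3 myoglobin-dexamethasone libraries and 3 were lower. Its deviation from those 3 libraries followed the density of reads on a gene. Over the 5 members with the densest coverage (above 0.3 normalised reads per exonic base) the median deviation was 0.46 on the log2 scale, over the 10 members at 0.03 to 0.1 it was -0.056, and over all genes the corresponding medians were 0.40 and -0.032. Across the 38 genes, which share the same libraries and are not replicates, density and deviation had a Spearman rho of 0.79. This library enters the shared estimate of spread in every comparison. Counts of called members are given with and without it, and so are the values of many single genes.

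**Figure D1:**
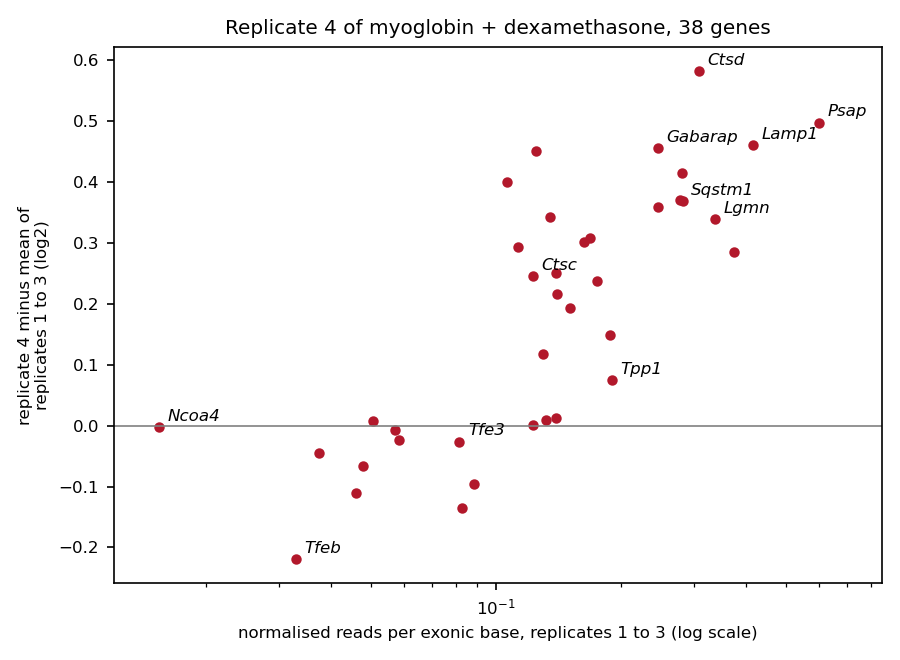
Deviation of replicate 4 of the myoglobin-dexamethasone group from the mean of replicates 1 to 3 (log2, vertical axis) against normalised reads per exonic base in replicates 1 to 3 (log axis), 1 point per gene. Points rise to the right, with Ctsd highest at 0.58 and Tfeb lowest at -0.22.

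Per kilobase of exon, the highest level in vehicle tubuloids belonged to Psap, the precursor of the saposins that help lipid hydrolases, at 567 normalised reads per kilobase. It was followed by the membrane glycoprotein gene Lamp1 at 390, the Atg8 family gene Gabarapl1 at 355 and the protease genes Lgmn at 327 and Ctsd at 280. The lowest levels per kilobase were those of Ncoa4, the receptor that delivers ferritin to the lysosome, at 14.7, the autophagy enzyme gene Atg7 at 37 and Tfeb at 40.6. Tfe3 stood above Tfeb on this scale, at 63.3 per kilobase in vehicle tubuloids. The same 5 genes led in the same order in both other groups, and with myoglobin Tfe3 stood at 79.7 and Tfeb at 28.9 per kilobase.

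The letters CACGTG were searched in RefSeq promoter windows (build GRCm38.p6) of 250 bases before to 50 after each start; the motif reads the same on both strands. Of the 38 genes, 32 had a window and 11 of these held it (34.4%), against 8.09% of the 27025 genes with a window in the whole table of promoters and 11.6% of the 10984 among them that were tested here. At least 2 copies were found in 5 members (15.6%), against 0.681% of all genes and 1.17% of tested genes. The form flanked by T before and A after, counted within the same matches, was found in 4 members (12.5%), against 1.12% of all genes and 2.14% of tested genes. Lamp1 had 4 copies, Mcoln1, Ctsa, Ctsd and Gla had 2 each, and Ctsl, Lgmn, Glb1, Naglu, Atg5 and Atg7 had 1 each. A gene with several windows was scored by the window with the most copies. The match is a description of letters in these windows and shows no binding. The list took in TFEB targets, and TFEB acts through this element. The higher share may therefore follow from how the members were chosen and is no separate result.

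Promoters are printed for 4 genes, 250 bases up to the start, 5′ to 3′ on the gene's own strand, with each E-box in capitals: Lamp1 for its 4 copies, Lgmn as the gene that passed when dexamethasone was added, and Ctsc and Neu1 as genes that changed without a copy. Lamp1 lies at chr8:13158911-13159160 (plus strand), with copies that begin at positions -61, -45, -28 and -15 from the start. Lgmn lies at chr12:102439093-102439342 (minus strand), before an alternative RefSeq start within the gene as the deposited table draws it, with its copy at -49. Ctsc lies at chr7:88277835-88278084 and Neu1 at chr17:34931003-34931252, both on the plus strand. None of these 4 stretches overlaps an annotated exon of GENCODE M21.
Lamp1: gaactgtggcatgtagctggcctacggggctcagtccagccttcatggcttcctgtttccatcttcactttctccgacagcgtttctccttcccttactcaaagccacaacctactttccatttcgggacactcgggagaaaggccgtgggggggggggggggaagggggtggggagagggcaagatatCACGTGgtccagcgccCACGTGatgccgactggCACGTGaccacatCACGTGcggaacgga
Lgmn: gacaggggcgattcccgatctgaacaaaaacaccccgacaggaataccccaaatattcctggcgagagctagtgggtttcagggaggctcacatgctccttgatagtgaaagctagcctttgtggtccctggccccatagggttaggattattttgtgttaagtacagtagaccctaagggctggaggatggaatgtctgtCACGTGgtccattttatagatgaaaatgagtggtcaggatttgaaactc
Ctsc: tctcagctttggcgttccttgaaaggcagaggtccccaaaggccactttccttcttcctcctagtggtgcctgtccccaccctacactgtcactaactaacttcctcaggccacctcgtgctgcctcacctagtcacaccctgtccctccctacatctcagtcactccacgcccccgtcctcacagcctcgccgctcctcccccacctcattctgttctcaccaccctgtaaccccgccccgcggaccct
Neu1: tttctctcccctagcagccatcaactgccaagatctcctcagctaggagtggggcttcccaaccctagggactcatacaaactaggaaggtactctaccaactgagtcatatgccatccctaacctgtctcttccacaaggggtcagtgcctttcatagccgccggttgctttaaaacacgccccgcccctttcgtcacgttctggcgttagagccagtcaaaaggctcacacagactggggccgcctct

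With myoglobin alone the number of the 38 transcripts that passed differed with the fit, and the transcription factors Tfe3 and Tfeb moved in opposite directions. Tfe3 and Ctsc rose and Tfeb fell with all 12 libraries in the fit, 3 of 38 genes, when 18.3% of the 14558 genes tested passed (8.71% higher, 9.62% lower). Groups did not overlap for 5 members that were higher and 2 that were lower, against 25% of all genes in either direction. The median change of the 38 genes was 0.01, beside 0.003 for all genes tested. Without replicate 4 of the myoglobin-dexamethasone group, 7 members were higher (Tfe3, Ctsc, Neu1, Sqstm1, Npc2, Lamp2 and Ctsb) and 3 lower (Tfeb, Lgmn and Ctsa), when 26.1% of genes passed (13.3% higher, 12.8% lower).

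Tfeb, the master regulator of lysosomal genes, had 176, 184, 200 and 160 normalised reads in replicates 1 to 4 with myoglobin and dexamethasone, 154, 155, 177 and 169 with myoglobin, and 237, 209, 226 and 248 with vehicle. All 8 libraries with myoglobin lay below all 4 vehicle libraries, and the 2 groups with myoglobin overlapped. With myoglobin alone the change from vehicle was -0.49 ± 0.0791 (SE, adjusted p = 0.000376). Tfe3, its close relative that binds the same element, had 780, 692, 795 and 741 with myoglobin and dexamethasone, 739, 733, 747 and 732 with myoglobin, and 614, 568, 606 and 556 with vehicle. Here all 8 libraries with myoglobin lay above the vehicle libraries, and the myoglobin libraries lay close together, between 732 and 747. The change with myoglobin alone was 0.33 ± 0.0473 (SE, adjusted p = 0.000115). Both calls held in all 23 alternative settings.

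Among the 9 proteases, Ctsc rose with myoglobin with all 12 libraries in the fit, and Ctsc and Ctsb did without myoglobin-dexamethasone replicate 4. Ctsc encodes cathepsin C, a dipeptidyl peptidase best known for activating the granule proteases of leukocytes. It had 672, 765, 710 and 848 normalised reads with myoglobin and dexamethasone, 725, 783, 699 and 771 with myoglobin, and 554, 602, 583 and 588 with vehicle. Every library with myoglobin exceeded every vehicle library, and its promoter, printed above, held no E-box. The change was 0.35 ± 0.0622 (SE, adjusted p = 0.000741) and passed in all 23 alternative settings. Of the leukocyte markers, Aif1 had 96 to 129 with myoglobin against 49 to 57 with vehicle and Cd14 had 451 to 557 against 324 to 374, whereas Ptprc had 320 to 377 against 401 to 484. Their part in the result was not tested. In bulk RNA, fewer cells of a type and less RNA per cell cannot be told apart.

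Ctsb, a cysteine protease that is among the most abundant cathepsins, had 1773, 1705, 1618 and 2264 normalised reads with myoglobin and dexamethasone, 1554, 1646, 1630 and 1490 with myoglobin, and 1514, 1433, 1432 and 1413 with vehicle. The myoglobin and vehicle groups overlapped through vehicle replicate 1. The change with myoglobin was 0.13 ± 0.0787 with all libraries (SE, adjusted p = 0.314) and 0.13 ± 0.0369 without myoglobin-dexamethasone replicate 4 (adjusted p = 0.0214). Lgmn, the asparaginyl endopeptidase that processes other cathepsins, went the other way at -0.14 ± 0.0347 without that library (SE, adjusted p = 0.0079), as did Ctsa at -0.10 ± 0.0344 (SE, adjusted p = 0.0483), the carboxypeptidase that also stabilises Neu1 and Glb1. With all 12 libraries neither passed in the main limma fit (adjusted p = 0.171 and 0.198). After cyclic loess normalisation of the 12 libraries both passed by limma (adjusted p = 0.0367 for Lgmn and 0.037 for Ctsa). Of the exonic bases of Ctsa, 17.4% lie antisense to another gene in GENCODE M21. The other 5 proteases, Ctsd, Ctsh, Ctsl, Ctsz and Tpp1, had changes of -0.038 to 0.020 and passed in neither fit.

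The sialidase gene Neu1 had 654, 661, 642 and 769 normalised reads with myoglobin and dexamethasone, 630, 635, 641 and 664 with myoglobin, and 552, 567, 572 and 612 with vehicle. All libraries with myoglobin were above the vehicle libraries, with a change of 0.16 ± 0.0538 for myoglobin alone (SE, adjusted p = 0.0527 with all libraries and 0.00326 without myoglobin-dexamethasone replicate 4). With all libraries Neu1 passed by limma after cyclic loess normalisation (adjusted p = 0.0476). It also passed with the replicate number as a further term of the fit (adjusted p = 0.00894). No other glycan or lipid hydrolase passed in the main fit or without that library. Gla, the alpha-galactosidase deficient in Fabry disease, was at 0.20 (adjusted p = 0.073), and Naglu, a heparan sulphate enzyme, at -0.11 (adjusted p = 0.141). Glb1, Hexa, Gusb and Asah1, the genes of beta-galactosidase, a hexosaminidase subunit, beta-glucuronidase and acid ceramidase, lay between -0.051 and 0.049.

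Among the soluble cofactors, Npc2, which carries cholesterol inside the lysosome, had 743, 756, 701 and 930 normalised reads with myoglobin and dexamethasone, 705, 711, 711 and 718 with myoglobin, and 666, 660, 647 and 644 with vehicle. The myoglobin libraries lay close together and all exceeded the vehicle libraries. The change with myoglobin of 0.12 ± 0.0643 did not pass with all libraries (SE, adjusted p = 0.228) and passed without myoglobin-dexamethasone replicate 4 (0.12 ± 0.0296, adjusted p = 0.00729). Psap and Grn, the progranulin gene, were at 0.001 and -0.034.

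Lamp2, a glycoprotein of the lysosomal membrane needed for fusion with autophagosomes, had 1661, 1607, 1534 and 1982 normalised reads with myoglobin and dexamethasone, 1459, 1530, 1519 and 1467 with myoglobin, and 1487, 1342, 1380 and 1349 with vehicle. Vehicle replicate 1 reached into the myoglobin range. The change with myoglobin of 0.11 did not pass with all libraries (adjusted p = 0.299) and passed without myoglobin-dexamethasone replicate 4 (adjusted p = 0.0398). Its partner Lamp1, in contrast, had 1143, 1097, 1098 and 1532 with myoglobin and dexamethasone, 1031, 1105, 1083 and 1071 with myoglobin, and 1041, 1044, 1047 and 1044 with vehicle. The vehicle libraries stood inside the myoglobin range and the change was 0.038 ± 0.0803 (SE, adjusted p = 0.799). Mcoln1, the calcium channel whose opening leads to TFEB activation, had 414, 436, 472 and 433 with myoglobin and dexamethasone, 425, 430, 419 and 444 with myoglobin, and 441, 465, 452 and 444 with vehicle. All 3 groups met, at -0.069 for myoglobin alone (adjusted p = 0.329). The cholesterol exporter gene Npc1 (0.13, adjusted p = 0.104) and the tetraspanin gene Cd63 (0.041, adjusted p = 0.765) passed in neither fit. Npc1 did pass with the replicate number as a further term of the limma fit (adjusted p = 0.0487).

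Of the autophagy receptors, Sqstm1 encodes p62, which binds ubiquitinated cargo and is itself degraded by autophagy. It had 993, 908, 936 and 1221 normalised reads with myoglobin and dexamethasone, 876, 869, 932 and 870 with myoglobin, and 818, 745, 765 and 780 with vehicle. All libraries with myoglobin were above the vehicle libraries. The change with myoglobin of 0.19 ± 0.0717 missed the threshold with all libraries (SE, adjusted p = 0.0814) and passed without myoglobin-dexamethasone replicate 4 (0.19 ± 0.0373, adjusted p = 0.00152). With all libraries Sqstm1 passed by limma after cyclic loess normalisation (adjusted p = 0.0459). It also passed with the replicate number as a further term of the fit (adjusted p = 0.0359). Ncoa4, the ferritin receptor, had 129, 149, 156 and 144 with myoglobin and dexamethasone, 156, 147, 153 and 142 with myoglobin, and 134, 122, 139 and 155 with vehicle. The 3 groups overlapped, and its change with myoglobin was 0.12 ± 0.084 (SE, adjusted p = 0.352).

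The genes that build autophagosomes gave no limma call with myoglobin in either fit, although Ulk1 had an unadjusted p below 0.05. Map1lc3b, whose product LC3B marks autophagosome membranes, had 382, 371, 387 and 382 normalised reads with myoglobin and dexamethasone, 354, 344, 362 and 321 with myoglobin, and 383, 373, 370 and 344 with vehicle. Its myoglobin libraries reached lower than the vehicle libraries but overlapped them, at -0.090 ± 0.0484 (SE, adjusted p = 0.231). The 5 members of the Atg8 family lay between -0.090 and 0.025. Ulk1, the kinase that starts autophagy, was at -0.15 ± 0.0618 (SE, adjusted p = 0.103), while Becn1, Atg5, Atg7 and Wipi1, which act in nucleation, lipid conjugation and membrane recognition, lay between -0.058 and 0.061. With the replicate number as a further term of the limma fit, Ulk1 passed (adjusted p = 0.0444).

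**Figure D2:**
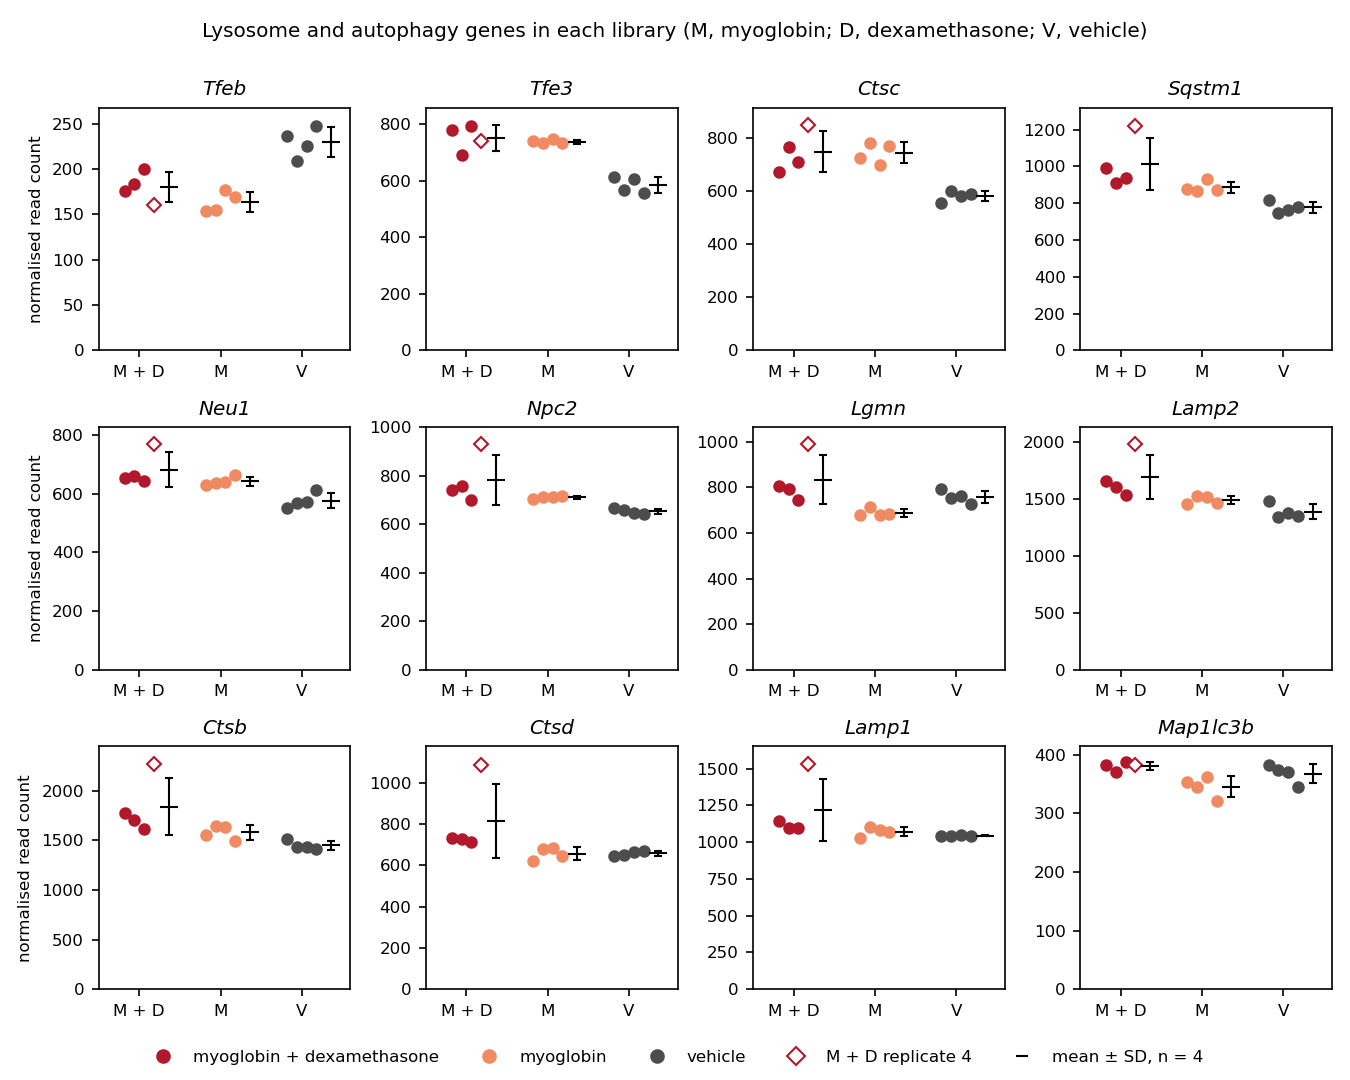
Normalised reads of 12 genes in each library (points), with the mean and SD of 4 libraries beside them, for myoglobin and dexamethasone, myoglobin, and vehicle; each axis starts at 0. Tfeb is lower and Tfe3 and Ctsc are higher in both groups with myoglobin, and replicate 4 of the first group (open diamond) lies highest in its group for Ctsd at 1085, Lamp1 at 1532 and Ctsb at 2264.

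Adding dexamethasone to myoglobin gave 1 call among the 38 genes, a higher Lgmn, when 6.98% of all genes passed (3.08% higher, 3.9% lower). None was lower by limma, and 13 members had an unadjusted p below 0.05, against 3226 of the 14558 genes tested. The median change of the 38 genes was 0.12 beside 0.006 for all genes, with 33 above 0. Without replicate 4 of the myoglobin-dexamethasone group the median was 0.045 beside 0.005, with 31 above 0, and Lgmn and Ctsd passed, when 8.81% of genes did (4.02% higher, 4.79% lower). In 10 members every myoglobin-dexamethasone library exceeded every myoglobin library, both with and without that library, and in none was the reverse so, when groups were apart for 13.2% of all genes (7.03% higher, 6.19% lower), or without it 19.3% (9.77% higher, 9.53% lower). The epithelial marker sums were 11795 in replicate 4 and 8678 to 9117 in the other 3 libraries with myoglobin and dexamethasone, and 8228 to 8683 with myoglobin, and their part in these changes was not tested.

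Lgmn had 806, 794, 746 and 989 normalised reads with myoglobin and dexamethasone, 678, 713, 681 and 682 with myoglobin, and 792, 753, 764 and 726 with vehicle. The myoglobin libraries were below all others, and the myoglobin-dexamethasone and vehicle libraries overlapped. The change when dexamethasone was added was 0.27 ± 0.0663 (SE, adjusted p = 0.024), or 0.18 ± 0.0375 without replicate 4 (SE, adjusted p = 0.00703). The call was lost when any 1 of myoglobin replicates 1, 3 or 4 was left out and when only the 2 groups compared were fitted, with an adjusted p of up to 0.0685. The comparisons of myoglobin with vehicle and of myoglobin-dexamethasone with myoglobin share the myoglobin libraries, so their opposite signs for Lgmn are not independent.

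Ctsd, the main aspartic protease of the lysosome, had 733, 726, 714 and 1085 normalised reads with myoglobin and dexamethasone, 619, 678, 683 and 645 with myoglobin, and 644, 650, 665 and 670 with vehicle. All libraries with dexamethasone exceeded all others, and replicate 4 was far above its group. The change from myoglobin was 0.29 ± 0.0994 with all libraries (SE, adjusted p = 0.0977) and 0.14 ± 0.0367 without replicate 4 (SE, adjusted p = 0.0254). Of the exonic bases of Ctsd, 34.4% are shared with another gene on the same strand in GENCODE M21, so its reads are not all certain to be its own. Tpp1, the tripeptidyl peptidase, was at 0.12 ± 0.0385 (SE, adjusted p = 0.0695), Ctsb at 0.21 ± 0.0787 (SE, adjusted p = 0.131) and the aminopeptidase gene Ctsh at 0.17 ± 0.0637 (SE, adjusted p = 0.127). Without replicate 4, Tpp1 was at 0.10, Ctsb at 0.11 and Ctsh at 0.097, and none of them passed. Ctsl and Ctsa, at 0.12 and 0.095 with all libraries, were at 0.006 and 0.047 without it. Ctsc, which had risen with myoglobin, was at 0.004 (adjusted p = 0.977).

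Of the 5 Atg8 family genes, 4 were among the 10 members that were higher without overlap between the groups, although none passed. Over all genes 7.03% were higher without overlap, or 9.77% without replicate 4. Gabarap had 464, 459, 431 and 619 normalised reads with myoglobin and dexamethasone, 421, 401, 424 and 411 with myoglobin, and 408, 401, 424 and 396 with vehicle. Gabarapl1 had 788, 725, 743 and 916 with myoglobin and dexamethasone, 688, 723, 710 and 650 with myoglobin, and 718, 727, 741 and 676 with vehicle. For Gabarap the libraries with dexamethasone stood above all others, while for Gabarapl1 they overlapped those with vehicle. Changes from myoglobin were 0.24 for Gabarap (adjusted p = 0.102), 0.19 for Gabarapl1 (adjusted p = 0.087), 0.14 for Map1lc3b (adjusted p = 0.0969) and 0.20 for Gabarapl2 (adjusted p = 0.226). Without replicate 4 they were 0.12 for Gabarap (adjusted p = 0.0776), 0.12 for Gabarapl1 (adjusted p = 0.115) and 0.22 for Gabarapl2 (adjusted p = 0.21). Map1lc3b had 0.0506 normalised reads per exonic base, in the range of 0.03 to 0.1 where the median deviation of replicate 4 over members was -0.056. Its 4 libraries with dexamethasone lay between 371 and 387, and its change without replicate 4 was 0.14. Of the exonic bases of Gabarapl1, 28.3% lie antisense to another gene, and the counting's use of strand is not given in the sources used here.

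The remaining roles gave no limma call with added dexamethasone in either fit, although Lamp2, Sqstm1, Psap, Glb1 and Asah1 had an unadjusted p below 0.05 with all libraries. Tfeb was at 0.13 (adjusted p = 0.339) and Tfe3 at 0.026 (adjusted p = 0.789). Among membrane proteins Lamp2 was at 0.18 (adjusted p = 0.118), Lamp1 at 0.17 (adjusted p = 0.232), Cd63 at 0.13 (adjusted p = 0.321), Mcoln1 at 0.029 (adjusted p = 0.737) and Npc1 at 0 (adjusted p = 0.999). The receptor genes Sqstm1 and Ncoa4 were at 0.19 (adjusted p = 0.144) and -0.051 (adjusted p = 0.759). Without replicate 4 Lamp2 was at 0.099, Lamp1 at 0.053, Cd63 at 0.031 and Sqstm1 at 0.092, while Tfeb was at 0.19 (adjusted p = 0.144). The 7 glycan and lipid hydrolases ranged from -0.11 for Gla to 0.16 for Asah1, the 3 cofactors from 0.12 for Grn to 0.20 for Psap, and the 5 genes of the autophagy machinery from 0.013 to 0.077. Without replicate 4 Asah1 was at 0.067, Neu1 at 0.022, Psap at 0.080, Npc2 at 0.043, Grn at 0.026, Becn1 at 0.047, Atg5 at 0.004 and Gusb at -0.02.

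**Figure D3:**
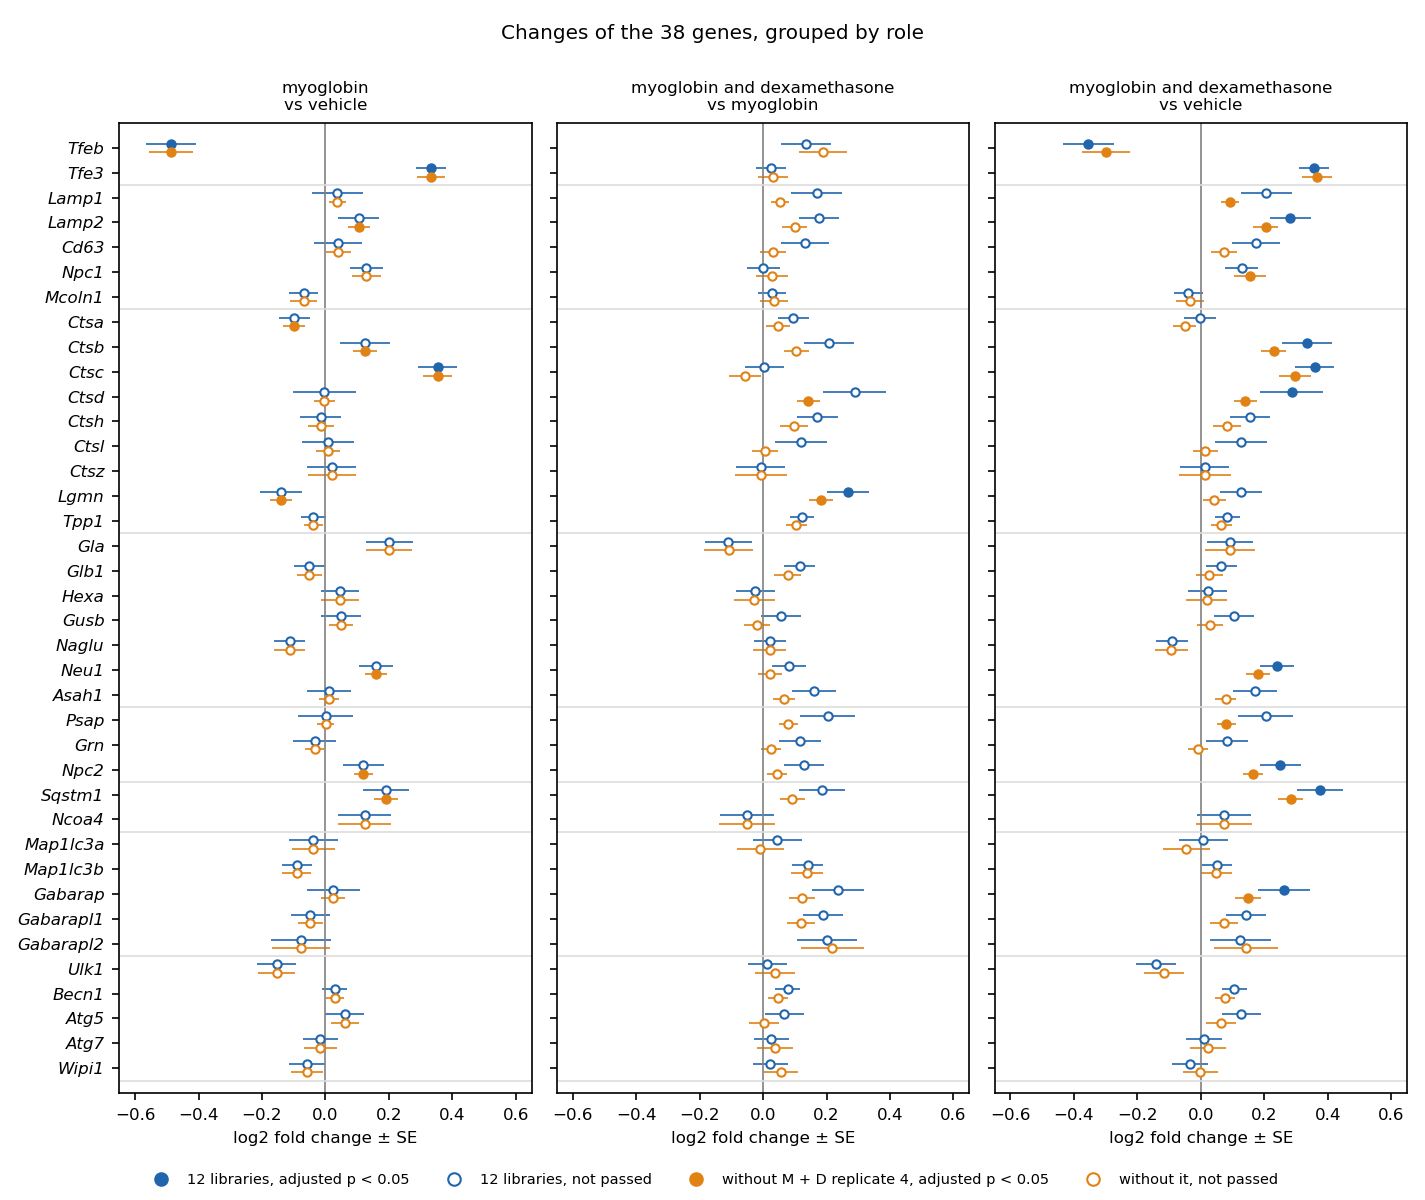
Log2 fold changes with SE of all 38 genes, ordered by role from transcription factors to autophagy machinery, in the 3 comparisons, with all 12 libraries (blue) and without replicate 4 of the myoglobin-dexamethasone group (orange); filled points have an adjusted p below 0.05. Most filled points lie in the comparison of myoglobin and dexamethasone with vehicle, where blue points are often further right than orange ones.

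Against vehicle, myoglobin with dexamethasone gave 9 higher and 1 lower of the 38 genes, when 28.6% of all genes passed (13.9% higher, 14.6% lower). Higher were Tfe3, Ctsc, Sqstm1, Neu1, Lamp2, Ctsb, Npc2, Gabarap and Ctsd, and lower was Tfeb. The median change was 0.13 beside 0.002 for all genes. Without replicate 4 the median was 0.072 beside 0.001, and 12 genes were higher and 1 lower, when 29.1% of genes passed (14.7% higher, 14.4% lower). Lamp1 (0.092, adjusted p = 0.0279), Npc1 (0.16, adjusted p = 0.0293) and Psap (0.081, adjusted p = 0.0465) were the 3 added. In 14 members every library with both agents exceeded every vehicle library and in 2, Tfeb and Ulk1, the reverse held, when groups were apart for 28.6% of all genes (15.3% higher, 13.3% lower). Without replicate 4 there were 15 and 2, when groups were apart for 34.9% (18.5% higher, 16.4% lower). This comparison shares its vehicle libraries with the first comparison and its other libraries with the second, so its values are not independent evidence.

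The change of Tfeb was -0.35 ± 0.0791 (SE, adjusted p = 0.00372) and that of Tfe3 was 0.36 ± 0.0473 (SE, adjusted p = 4.57e-05). The changes of the other genes that passed were 0.36 ± 0.0622 for Ctsc (SE, adjusted p = 0.000529), 0.38 ± 0.0717 for Sqstm1 (SE, adjusted p = 0.00115), 0.24 ± 0.0538 for Neu1 (SE, adjusted p = 0.00375) and 0.28 ± 0.0644 for Lamp2 (SE, adjusted p = 0.00427). These and the calls for Ctsb (0.33, adjusted p = 0.00528) and Npc2 (0.25, adjusted p = 0.0092) held in all 23 alternative settings. The 2 weakest calls did not: Gabarap (0.26, adjusted p = 0.0275) was lost in 3 of 23 settings and Ctsd (0.29, adjusted p = 0.0425) in 11. Replicate 4 moved the size of several: without it Sqstm1 was at 0.28, Ctsb at 0.23, Npc2 at 0.16, Gabarap at 0.15 and Ctsd at 0.14, each still past the threshold, while Tfe3 was at 0.37. Of the exonic bases of Sqstm1 and Ctsb, 17.3% and 12.8% lie antisense to another gene.

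The 5 genes of the autophagy machinery did not pass against vehicle, by limma with all libraries or without replicate 4. Ulk1 was at -0.14 ± 0.0618 (SE, adjusted p = 0.0998) and Becn1, which shares 43.9% of its exonic bases with an antisense gene, at 0.11 ± 0.0393 (SE, adjusted p = 0.057). With the replicate number as a further term of the limma fit, Ulk1 (adjusted p = 0.0473) and Becn1 (adjusted p = 0.0353) passed. Atg5, Atg7 and Wipi1 were at 0.13 (0.065 without replicate 4), 0.01 and -0.035. Ncoa4 was at 0.073 ± 0.084 (SE, adjusted p = 0.547), Map1lc3b at 0.051 ± 0.0484 (SE, adjusted p = 0.456) and Mcoln1 at -0.039 ± 0.0445 (SE, adjusted p = 0.538). Ctsa, Ctsz, Hexa and Map1lc3a lay between -0.003 and 0.022. When every library was rescaled to the same total, Ulk1 passed as a second lower gene, and over all genes the split of higher to lower calls was 1565 to 2648, in place of 2029 to 2132.

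The members with an E-box in the window and those without are set beside their changes. With all libraries, myoglobin against vehicle gave no call by limma among the 11 members with an E-box, and 2 higher and 1 lower among the 21 without, when 18.3% of all genes passed. Without myoglobin-dexamethasone replicate 4 there were 2 lower calls among the 11, and 6 higher and 1 lower among the 21, when 26.1% of all genes passed. Lamp1, with its 4 copies, was at 0.038 in both fits and did not pass. When dexamethasone was added to myoglobin, Lgmn with all libraries, and Lgmn and Ctsd without replicate 4, both with an E-box, gave the calls. Lgmn was counted with an E-box through the window of an alternative RefSeq start within the gene. Of all genes 6.98% passed with all libraries, and 8.81% without replicate 4. The medians were 0.095 with and 0.12 without an E-box with all libraries, and 0.037 with and 0.043 without one when replicate 4 was left out. Against vehicle, both agents together gave 1 higher call among the 11 with all libraries and 2 without replicate 4. Among the 21 they gave 7 higher and 1 lower with all libraries, and 8 higher and 1 lower without it. In this comparison 28.6% of all genes passed with all libraries (13.9% higher), and 29.1% without replicate 4 (14.7% higher). The 6 members with no window gave 0 calls by limma for myoglobin and 1 higher for both agents against vehicle with all libraries, and 1 and 2 higher without replicate 4. These groups are small, and no test of the difference was run.

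**Figure D4:**
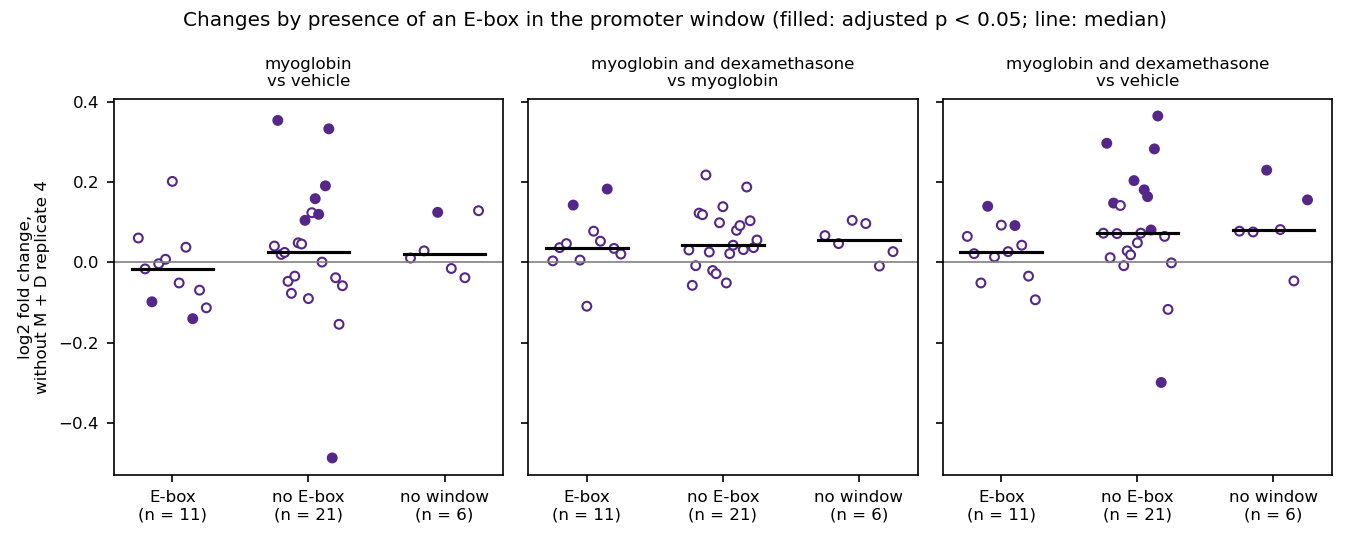
Log2 fold changes of the 38 genes without replicate 4 of the myoglobin-dexamethasone group, divided by whether the promoter window held CACGTG (11 genes), did not (21) or was not in the table (6); filled points passed and lines are medians. With myoglobin the widest changes, -0.49 for Tfeb and 0.35 for Ctsc, belong to genes without an E-box in the window.

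Other genes of the pathway were read from lists of related genes. The general subunits of the V-ATPase, the proton pump that acidifies the lysosome, gave the largest share of higher genes among the lists when both agents were set against vehicle: 12 of 18 were higher and 0 lower by limma (17 had an unadjusted p below 0.05), with a median of 0.20, or 9 of 18 and a median of 0.13 without replicate 4. Over all genes 13.9% were higher in that comparison, or 14.7% without replicate 4. An unadjusted limma p below 0.05 was reached there by 5909 of the 14558 genes tested with all libraries. With myoglobin alone 2 of 18 were higher than with vehicle, Tcirg1 (905 ± 40.7 against 717 ± 21.5 normalised reads, SD, n = 4 each; 0.34, adjusted p = 7.3e-05) and Atp6v1h (0.17, adjusted p = 0.00618), or 5 of 18 without myoglobin-dexamethasone replicate 4. Over all genes 8.71% were higher and 9.62% lower with myoglobin, or 13.3% and 12.8% without that library. When dexamethasone was added to myoglobin, Atp6v1a, the catalytic subunit, rose (0.22, adjusted p = 0.018), 1 of 18, when 3.08% of all genes were higher. Without replicate 4 of the myoglobin-dexamethasone group 1 subunit was higher and 1 lower, when 4.02% of all genes were higher and 4.79% lower. The subunits known from acid-secreting intercalated cells are given apart. With myoglobin Atp6v1b1 (-1.69, adjusted p = 7.52e-05) and Atp6v0d2 (-0.40, adjusted p = 0.00227) fell, and with added dexamethasone Atp6v0d2 (0.61, adjusted p = 0.000286) and Atp6v0a4 (0.27, adjusted p = 0.00513) rose. Of the 4 intercalated cell markers in the table, which include Atp6v1b1 and Atp6v0d2, 3 were lower and 1 higher with myoglobin than with vehicle. Foxi1 had 9 to 22 normalised reads with myoglobin and dexamethasone, 6 to 8 with myoglobin and 32 to 53 with vehicle. Slc26a4 had 147 to 193 with myoglobin and dexamethasone, 143 to 215 with myoglobin and 56 to 113 with vehicle. The summed level of the 4 markers was 504 to 594 with myoglobin and dexamethasone, 379 to 485 with myoglobin and 401 to 543 with vehicle, and their part was not tested.

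In the lists that follow, counts for myoglobin against vehicle stand beside 8.71% higher and 9.62% lower over all genes with all libraries, and 13.3% and 12.8% without myoglobin-dexamethasone replicate 4. An unadjusted limma p below 0.05 was reached in that comparison by 4392 of the 14558 genes tested with all libraries. Of 20 genes of mTORC1 and TFEB control, 3 were higher and 2 lower with all libraries, and 4 and 2 without that library. Rragd, a Rag GTPase that recruits mTORC1 to the lysosome, rose (670 ± 39.2 against 502 ± 32, SD, n = 4 each; 0.42, adjusted p = 5.04e-05), and Mitf, of the same family as Tfeb, fell (104 ± 10.3 against 146 ± 14.8, SD, n = 4 each; -0.50, adjusted p = 0.00191). With added dexamethasone Rragb fell (-0.48, adjusted p = 0.0156) and Sesn2, an inhibitor of mTORC1, rose (0.19, adjusted p = 0.0201). Of 32 other autophagy machinery genes, 3 were higher and 2 lower with myoglobin, and 6 and 2 without that library. Among them Atg9a, a scramblase of autophagosome vesicles, rose (347 ± 18.5 against 253 ± 7.32, SD, n = 4 each; 0.46, adjusted p = 0.000202), as did the lipid transfer gene Atg2b (0.21, adjusted p = 0.00644). The protease Atg4a, which trims Atg8 proteins, rose when dexamethasone was added (182 ± 12.5 against 134 ± 7.89, SD, n = 4 each; 0.44, adjusted p = 0.00246). Of 11 other receptors, 1 was higher and 1 lower with myoglobin in both fits: the mitophagy receptor Optn rose with myoglobin (0.32, adjusted p = 5.74e-05) and Calcoco1 fell (-0.19, adjusted p = 0.0344), and Nbr1 was higher with added dexamethasone (0.18, adjusted p = 0.0262).

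Of 32 other lysosomal hydrolases and cofactors, 2 were higher and 3 lower with myoglobin than with vehicle, and 4 and 5 without myoglobin-dexamethasone replicate 4. The cysteine protease Ctsf fell with myoglobin (220 ± 8.35 against 322 ± 22.2, SD, n = 4 each; -0.55, adjusted p = 1.65e-05) and rose when dexamethasone was added (0.29, adjusted p = 0.0124), and Galns, a sulphatase, fell with myoglobin (-0.37, adjusted p = 0.00165). Smpd1, acid sphingomyelinase, rose with added dexamethasone (0.23, adjusted p = 0.00625). With added dexamethasone 3 of these 32 genes were higher and 2 lower in both fits. Their changes ran from -0.68 to 0.29 with all libraries, when 3.08% of all genes were higher and 3.9% lower. Of 18 other membrane proteins, 4 were lower and 0 higher by limma with myoglobin in both fits (4 had an unadjusted p below 0.05), led by Scarb2, which carries a glucosidase to the lysosome (-0.18, adjusted p = 0.0135), and the lipid transporter Abca2 (-0.15, adjusted p = 0.0138); Slc36a1 was higher with added dexamethasone (0.14, adjusted p = 0.0444). Of 10 sorting genes, 0 were called with myoglobin by limma with all libraries (1 had an unadjusted p below 0.05). Without that library M6pr, the mannose 6-phosphate receptor, passed (0.16, adjusted p = 0.00052). Sort1 rose with added dexamethasone (0.20, adjusted p = 0.0179). Neither the 2 cathepsin inhibitor genes tested nor the 4 genes that mark damaged lysosomes gave a limma call with all libraries in any of the 3 comparisons. The smallest p of these belonged with myoglobin to Lgals3, which coats ruptured lysosomes (-0.24, adjusted p = 0.066; 0.00855 without myoglobin-dexamethasone replicate 4).

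**Figure D5:**
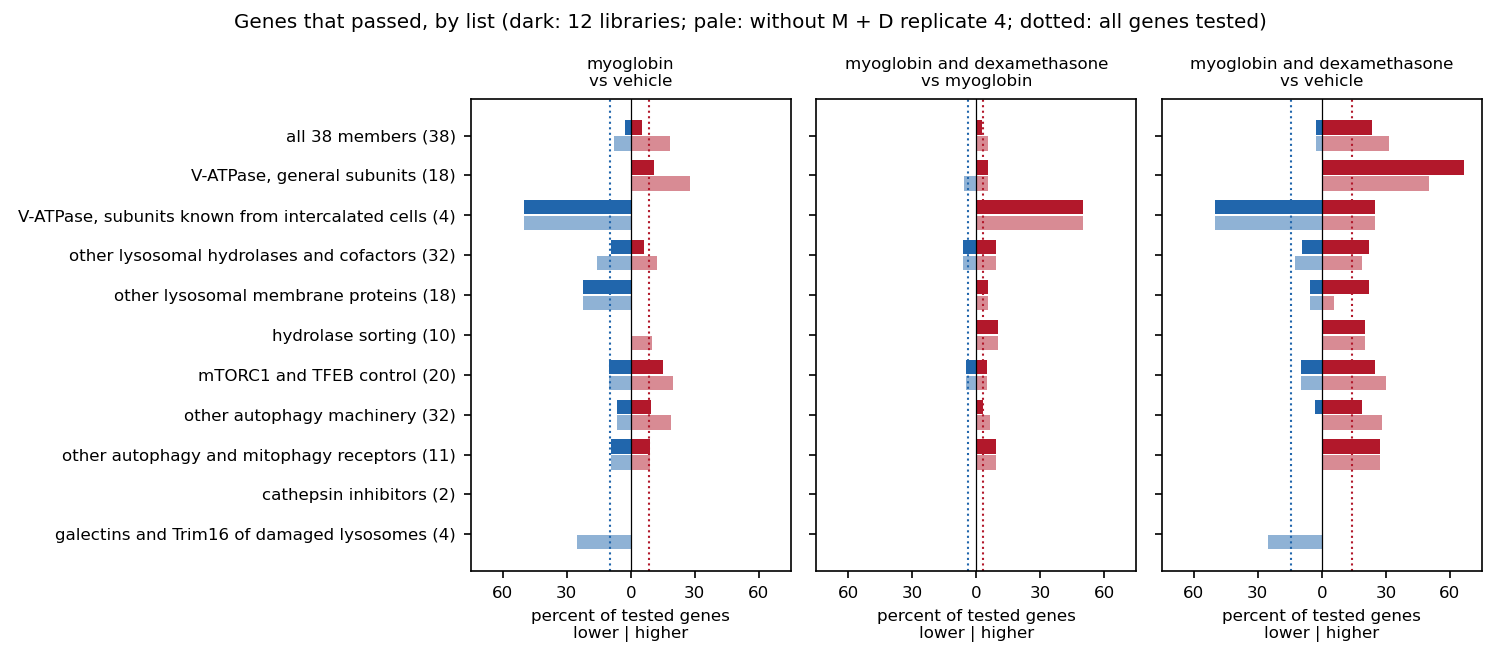
Percent of tested genes of each list that were higher (right) or lower (left) in the 3 comparisons, with all libraries (dark) and without replicate 4 of the myoglobin-dexamethasone group (pale); dotted lines give the percent of all genes, and the number of genes is in brackets. The general V-ATPase subunits reach furthest right, at 12 of 18 with both agents against vehicle.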

How the data were processed

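Stranded mRNA libraries were made from total RNA, per the labels' protocols. Tools listed in the submitters' processing notes are STAR 2.7.10a, featureCounts 2.0.3, Trimmomatic 0.39, DESeq2 1.36.0 and Picard 2.27.4, with the build mm10; their settings are not given in the sources used here. The deposited table holds, per gene and library, a whole-number score: from the spacing of its values, reads divided by a size factor per library and rounded by the authors. Such values are not counts, so no count model was used.

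Values were analysed as log2(value + 1) with limma 3.58.1 (R 4.3.3; trend, two-sided, 9 residual degrees of freedom before moderation), all 12 libraries in 1 fit, over 14558 genes with at least 10 in at least 4 libraries. Groups came from the labels. The script was checked on simulated data. Levels per kilobase used the union of exons of GENCODE M21, whose coordinates matched 98.9% of the table's genes. Estimated reads were 3255000 to 5923000 per library. Alternatives were 23: other pseudocounts, filters, scalings, library weights, 2 groups only, a replicate block, and each library left out.

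The members and lists were chosen with earlier results of these data known. Values of every library are printed for 10 members chosen for their roles and for up to 10 members per comparison that passed, by smallest p; of other lists at most 2 passing genes per comparison are named. Promoters came from RefSeq (GRCm38.p6); 6 members had no window there (Npc1, Ctsb, Ctsh, Asah1, Map1lc3a and Becn1).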

Additional observations from a re-analysis of the deposited data

Results flagged for a closer look

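In 12 of the 114 sets of 4 libraries examined (38 genes in 3 groups), 1 library stood far from the other 3 by Dixon's criterion. Chance gives about 1 in 20 such sets. In 8 of the 12 it was replicate 4 of the myoglobin-dexamethasone group, the library with the fewest estimated reads, and each time it was the highest. These were Lamp1 (1532, the others 1097 to 1143), Cd63 (514, the others 385 to 393), Ctsd (1085, the others 714 to 733), Ctsl (1113, the others 783 to 837), Gusb (916, the others 740 to 744), Neu1 (769, the others 642 to 661), Psap (2322, the others 1597 to 1693) and Grn (1094, the others 833 to 874 normalised reads).

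The other 4 lay in other libraries. Lgmn was highest in myoglobin replicate 2 (713, the others 678 to 682), and Sqstm1 was highest in myoglobin replicate 3 (932, the others 869 to 876). Naglu was lowest in myoglobin-dexamethasone replicate 2 (345, the others 354 to 355), and Gabarapl2 was highest in myoglobin-dexamethasone replicate 1 (122, the others at 106).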

How the results depend on the processing

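No member's change that passed turned round in any of the 23 alternative settings. The 3 calls for myoglobin against vehicle held in all 23, and 8 of the 10 for both agents against vehicle did, the exceptions being Ctsd and Gabarap. Counts moved more. For myoglobin against vehicle, the 2 higher and 1 lower members became 4 and 3 with quantile or cyclic loess normalisation, 9 and 4 with library weights, 7 and 2 with only the 2 groups compared, and 5 and 2 with the replicate block. With 1 library left out they ranged over 2 to 7 higher, 7 without myoglobin-dexamethasone replicate 4, and 1 to 3 lower, 2 without vehicle or myoglobin replicate 1 and 3 without myoglobin-dexamethasone replicate 4. All genes higher were 2143 and lower 2171 with library weights, against 1268 and 1401, and ranged over 957 to 1926 and 1053 to 1863 with 1 library left out.

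For added dexamethasone, the 1 higher member became 2 with library weights, 0 with only the 2 groups compared, and 2 with the replicate block. It became 0 without myoglobin replicate 1, 3 or 4, 2 without myoglobin-dexamethasone replicate 2 or 4, and 3 without replicate 3 (range 0 to 3). All genes, 448 higher and 568 lower, became 740 and 885, 274 and 365, and 749 and 1039 in the same 3 settings. With 1 library left out they ranged over 253 to 584 and 296 to 695, the lowest without myoglobin replicate 4; without myoglobin replicate 2 they were 290 and 326, and without myoglobin replicate 3 the first was 291. For both agents against vehicle, the 9 higher members became 15 with the replicate block, which added Lamp1, Npc1, Asah1, Ctsh, Psap and Becn1 (7 to 12 with 1 library left out), and the 1 lower became 2 with the same total per library, with quantile or cyclic loess normalisation, with the block, where Ulk1 was added, and without myoglobin replicate 1 (range 1 to 2). The causes of these shifts were not tested. Same-numbered libraries correlated at -0.0151 to 0.456 across the 3 pairs of groups. For myoglobin and vehicle they correlated at 0.0953 to 0.456, and libraries with different numbers at -0.403 to 0.0869. In the other pairs of groups these ranges overlapped. Across the 3 pairs, 4, 3 and 3 of 4 libraries correlated best with their own number. The labels do not say that a number marks a mouse, so the main fit left the number out. Whether it pairs the libraries is not known. Replicate 4 of the myoglobin-dexamethasone group had the fewest estimated reads, 3255000; whether depth set its deviation was not tested.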
